A study of Rattus norvegicus with 29 samples.

Results

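The miR-17 to miR-92a cluster is a run of microRNA (miRNA) hairpins that lie side by side and are made as a single primary transcript. Its members were taken as the rows of the plasma count table that carry 10 names of mature miRNAs of this cluster, from miR-17-5p at its start to miR-92a-3p at its end, including the less used arm of 4 hairpins. The less used arms miR-19a-5p and miR-19b-1-5p were not among these names. All 10 names were found among the 754 miRNAs of the table, and all 10 were among the 751 that passed a filter on low counts and were tested. Small RNA was sequenced from tail vein plasma of 29 rats, drawn into EDTA tubes under isoflurane 48 h after surgery. All were adult male Sprague-Dawley rats. The injured rats had a traumatic brain injury (TBI) by lateral fluid percussion, in which a fluid pulse strikes the opened skull from the side, and 10 sham rats were operated on in the same way but not struck. The injured rats were grouped by 4 weeks of video-EEG in month 7 into 10 without epilepsy (TBIN) and 9 with epilepsy (TBIE). Rats came from 3 sites: UEF with 4 sham, 4 TBIN and 4 TBIE, Monash with 3, 3 and 2, and UCLA with 3, 3 and 3.

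Each sample was a separate rat. The miRNA counts summed to between 1162307 and 5223469 per rat, with a median of 2713557. The spread of a miRNA between rats beyond counting error, as the common biological coefficient of variation that edgeR fits, was 0.475. Levels are given as CPM, counts scaled to a common library total with TMM factors, which are set by the bulk of the miRNAs. The library UEF sham 3 stood apart, with the lowest TMM factor of 0.333. In it the liver miRNA miR-122-5p took 55.1% of all counts and the cluster 0.563%, the lowest share of the 29 rats.

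Within the nucleus the primary transcript is cut into hairpins by Drosha, and Dicer then cuts each hairpin into a duplex, of which usually 1 arm is kept and the other is degraded. The kept strand guides Argonaute to messenger RNAs through its seed, bases 2 to 8 from the 5′ end, so miRNAs with a common seed share many targets. The cluster is driven by MYC and E2F, favours cell division and survival, and is required for normal blood, heart and lung development. In blood, miR-92a-3p is also among the abundant miRNAs of red cells, and its plasma level is known to move with red cell lysis.

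RefSeq places the 6 hairpins Mir17, Mir18a, Mir19a, Mir20a, Mir19b1 and Mir92a1 at chr15:98587848-98588632 on the plus strand of GRCr8, a span of 785 bases. The authors aligned the reads to an older build, Rnor_6.0, so these positions locate the cluster and were not used for counting. All 10 members matched RefSeq entries. Their mature sequences are shown from 5′ to 3′ in hairpin order, with the seed in capitals, because the members called between sites are read below beside those that share their seed. The last line shows miR-363-3p, a miRNA of the chromosome X copy of the cluster that shares the seed of miR-92a-3p.
rno-miR-17-5p: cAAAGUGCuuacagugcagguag
rno-miR-17-1-3p: aCUGCAGUgaaggcacuugugg
rno-miR-18a-5p: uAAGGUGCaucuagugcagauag
rno-miR-18a-3p: aCUGCCCUaagugcuccuucu
rno-miR-19a-3p: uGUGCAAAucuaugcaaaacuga
rno-miR-20a-5p: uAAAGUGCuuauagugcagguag
rno-miR-20a-3p: aCUGCAUUacgagcacuuaca
rno-miR-19b-3p: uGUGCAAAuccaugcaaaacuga
rno-miR-92a-1-5p: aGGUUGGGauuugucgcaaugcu
rno-miR-92a-3p: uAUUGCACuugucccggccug
rno-miR-363-3p: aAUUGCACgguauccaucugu

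The members fall into 4 families by the seed of the arm that is mainly kept. miR-17-5p and miR-20a-5p share the seed AAAGUGC, as do miR-20b-5p, miR-106b-5p and miR-93-5p of the other copies of the cluster. Counting positions from 1 at the 5′ end of miR-17-5p, miR-20a-5p differs from it by C1U and C12U, both outside the seed. miR-18a-5p differs from miR-17-5p at 6 positions, of which A4G lies in the seed and gives AAGGUGC. miR-19a-3p and miR-19b-3p share GUGCAAA and differ by U11C alone. The seed AUUGCAC of miR-92a-3p is also that of miR-363-3p, miR-25-3p, miR-92b-3p and miR-32-5p.

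The mature sequences of miR-17-5p, miR-19b-3p and miR-92a-3p are each found at 2 places in RefSeq, in this cluster and in its copy on chromosome X (Mir106a, Mir19b2 and Mir92a2). Their counts can therefore not be split between the copies. The other 7 members were found in the chromosome 15 cluster only.

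Almost all cluster counts were miR-92a-3p. It held 90.9% of the counts of the 10 members, between 82.8% and 95.5% in a rat, and ranked 10 of 754 miRNAs by total count. Its level was 19940 CPM ± 6487 (mean ± SD, n = 29). miR-92a-3p represses integrin and vessel growth genes and is the mainly kept arm of the last hairpin.

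The next levels were far lower. miR-19b-3p, the kept arm of the next to last hairpin, was at 764 CPM ± 393 (SD, n = 29). miR-20a-5p, which shares the miR-17 seed, was at 617 CPM ± 287. The ranges of these 2 overlapped widely. So did those of miR-17-5p at 197 CPM ± 91.0 and miR-18a-5p at 188 CPM ± 62.2.

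The 5 lowest were miR-18a-3p (79.5 CPM ± 27.9), miR-17-1-3p (64.1 CPM ± 27.4), miR-19a-3p (60.0 CPM ± 30.1), miR-92a-1-5p (43.5 CPM ± 13.1) and miR-20a-3p (19.3 CPM ± 13.0). Of these, 4 are the arm that is mainly degraded, while miR-19a-3p is the kept arm of its hairpin. Although miR-19a-3p and miR-19b-3p differ by 1 base, their levels lay in separate ranges, 26.6 to 141 CPM against 265 to 1638 CPM. A read covers a whole mature miRNA, so these levels need no scaling by length, but miRNAs differ in how well they are ligated and amplified, and levels of different miRNAs compare capture as well as abundance.

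The spread between rats was widest for miR-20a-3p, with a coefficient of variation of 67.4%. Its counts ran from 6 to 156 in a rat, so counting error adds to its spread. It was narrowest for miR-92a-1-5p (30.1%) and miR-92a-3p (32.5%), both arms of the last hairpin.

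**Figure D1:**
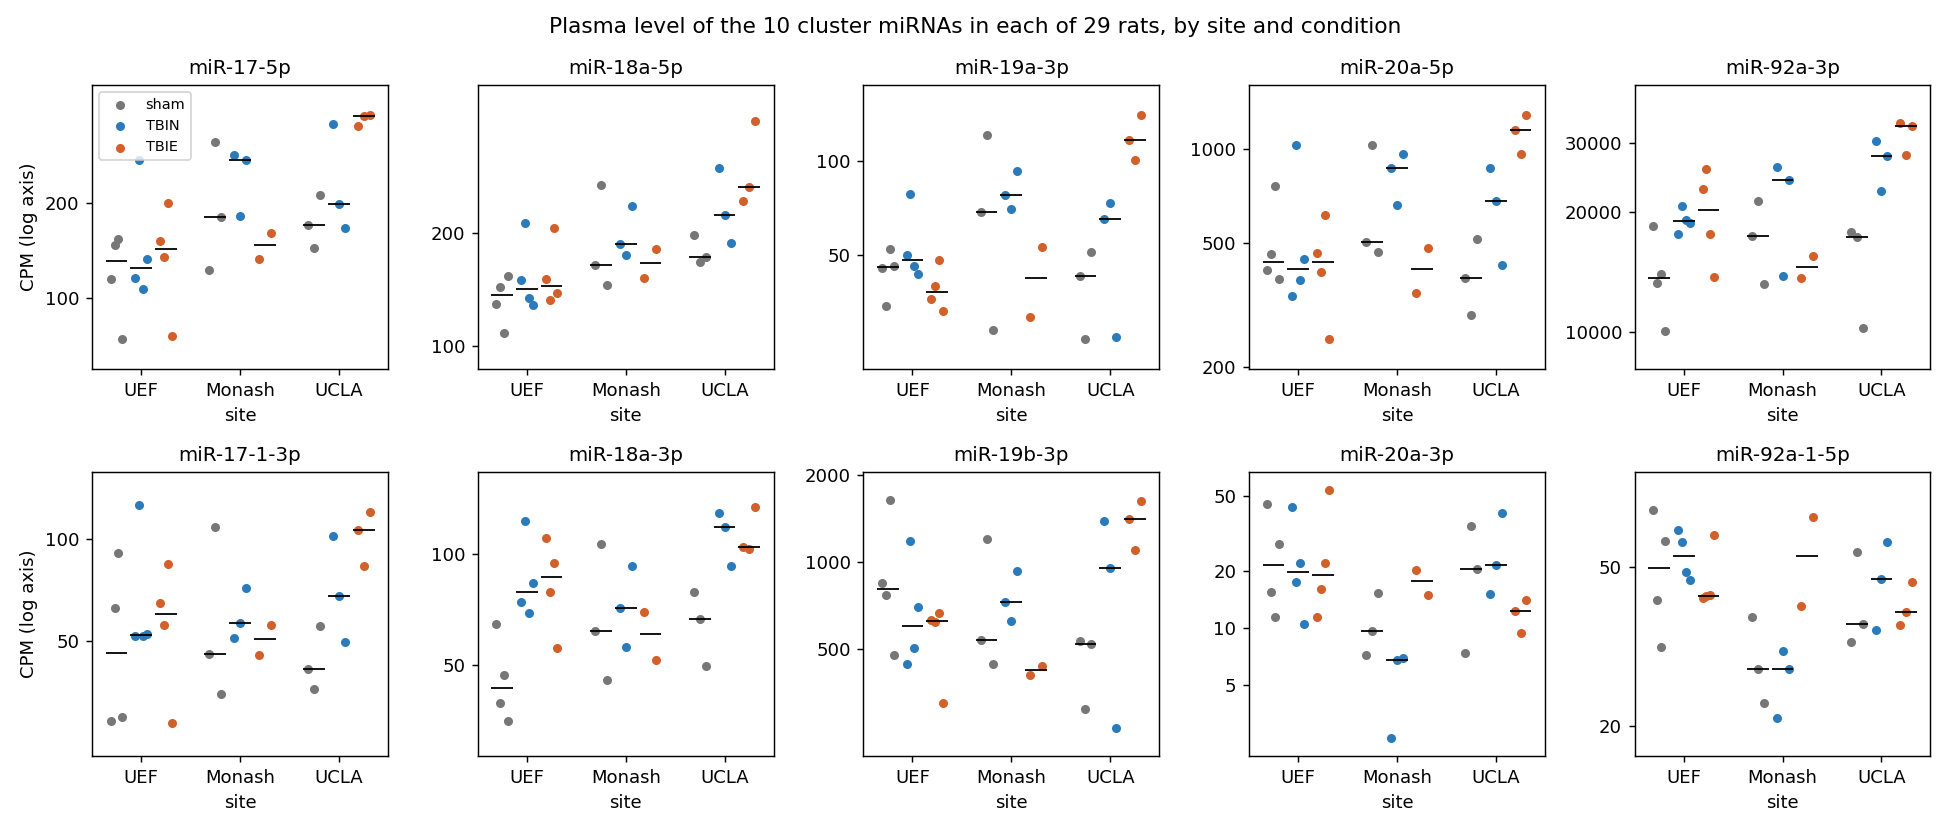
Level of each of the 10 cluster miRNAs in each of the 29 rats, in CPM on a log axis, by site and by condition (grey sham, blue TBIN, orange TBIE); each point is 1 rat and each short line is the median of its group. At UCLA all 6 TBI rats lie above all 3 sham rats for miR-18a-3p and miR-92a-3p, and miR-20a-3p is at or below 20.3 CPM in all 8 Monash rats.

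The comparison of TBI with sham asks how the plasma level of each miRNA differed 48 h after injury. The highest member of the cluster, miR-92a-3p, was at 10050 CPM at the lowest, 15660 at the median and 21380 at the highest in 10 sham rats. In 19 TBI rats these values were 13660, 22680 and 33550 CPM. The groups overlapped, with 10 of 19 TBI rats above the highest sham rat and 15 above the sham median.

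miR-18a-3p, the less used arm of the miR-18a hairpin, was at 35.3, 55.7 and 107 CPM (lowest, median, highest) in sham rats. It was at 51.5, 92.6 and 134 CPM in TBI rats. Of the 19 TBI rats, 17 were above the sham median and 5 above the highest sham rat. That sham rat, Monash sham 2, was the highest sham rat for 7 of the 10 members.

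No member was called between TBI and sham by edgeR's quasi-likelihood test at an adjusted p below 0.05, in a comparison that called 1.20% of all miRNAs (9 of 751). The largest differences were miR-18a-3p at log2 0.57 (SE 0.18, adjusted p = 0.116 in edgeR) and miR-92a-3p at log2 0.51 (SE 0.17, adjusted p = 0.165 in edgeR). These were the 2 members with an unadjusted p below 0.05, of 83 miRNAs in all. In DESeq2, 1 member passed, miR-18a-3p, with an adjusted p of 0.0456, where 24 of all 751 miRNAs passed. Leaving out Monash sham 2 gave 2 members past the threshold in edgeR, miR-18a-3p at log2 0.73 (adjusted p = 0.00961) and miR-92a-3p at log2 0.59 (adjusted p = 0.0491). Over the fits with each rat left out in turn, 1 to 16 of all miRNAs passed.

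Estimates for the other 8 ran from log2 −0.07 for miR-20a-3p to 0.35 for miR-17-5p and for miR-17-1-3p. miR-19a-3p and miR-20a-5p were both at 0.30, miR-18a-5p at 0.26, miR-92a-1-5p at 0.12 and miR-19b-3p at 0.02. The median over the 10 members was 0.30, and 9 were above 0, against a median of 0.03 over all 751 miRNAs. It was 0.14 with UCLA left out (7 above 0, all miRNAs 0.09), 0.47 with Monash left out, 0.48 without Monash sham 2 and 0.20 without UCLA sham 2. With the RLE size factors miR-19b-3p was below 0 too, and the median was 0.27. The 95% interval of the miR-20a-3p difference ran from −0.69 to 0.54, and that of miR-19b-3p from −0.56 to 0.60, so neither excludes a difference of the size seen for miR-92a-3p.

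Plasma carries RNA released by many cells. A higher level may come from more cells releasing a miRNA or from more of it per cell, and these cannot be told apart here.

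The comparison of TBIE with TBIN asks whether rats that later had epilepsy already differed at 48 h. miR-92a-3p was at 13820, 21740 and 30220 CPM (lowest, median, highest) in TBIN and at 13660, 22920 and 33550 CPM in TBIE. miR-18a-3p was at 55.8, 88.1 and 129 CPM in TBIN and at 51.5, 94.3 and 134 CPM in TBIE. The ranges covered each other almost wholly.

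Log2 differences of TBIE minus TBIN lay between −0.05 and 0.13 for the 10 members, with a median of 0.02. With UCLA left out they ran from −0.57 to 0.71 (median −0.15, 2 of 10 above 0, 1 with an unadjusted p below 0.05 in edgeR), with Monash left out from −0.36 to 0.29, and with UEF left out from −0.06 to 0.45. None was called by edgeR or by DESeq2, where 0.00% of all 751 miRNAs were called by either. No member had an unadjusted p below 0.05 in edgeR, against 18 of all miRNAs. The 95% interval for miR-92a-3p ran from −0.39 to 0.40 on the log2 scale and that for miR-20a-3p from −0.60 to 0.86.

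Within sites, the estimates of TBI minus sham were of unlike size, and whether they depended on the site was tested separately. At UCLA miR-92a-3p was at 10220, 17340 and 17910 CPM in the 3 sham rats and between 22680 and 33550 CPM in the 6 TBI rats, with a median of 29040 CPM. miR-18a-3p was there at 49.7, 66.6 and 79.1 CPM in sham and between 92.6 and 134 CPM in TBI. For these 2 members every UCLA TBI rat was above every UCLA sham rat, where 5.99% of all miRNAs had no overlap of the groups in either direction.

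At UCLA 9 of the 10 members were above 0 in TBI minus sham, with a median log2 difference of 0.87, against −0.01 over all miRNAs. The estimates were 1.27 for miR-19b-3p (SE 0.47), 1.12 for miR-20a-5p (SE 0.40), 1.01 for miR-19a-3p (SE 0.35) and 0.94 for miR-92a-3p (SE 0.30). miR-17-1-3p was at 0.96, miR-18a-3p at 0.80, miR-17-5p at 0.76 and miR-18a-5p at 0.58. These 8 had an unadjusted p below 0.05, yet none was called at an adjusted p below 0.05 in edgeR, where 1.46% of all miRNAs were called (11) and 123 had an unadjusted p below 0.05. Without UCLA sham 2, 2 members had an unadjusted p below 0.05 in edgeR, as did 2 in a separate fit of all rats scaled to miR-28-3p. The lowest adjusted p in edgeR was 0.114, for miR-92a-3p, which DESeq2 called (adjusted p = 0.0265) among 40 of all miRNAs. Both the kept and the less used arms of the miR-17 and miR-18a hairpins were among the 8, while miR-20a-3p and miR-92a-1-5p were not.

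At UEF the 4 sham rats had miR-18a-3p at 64.6, 39.5, 47.1 and 35.3 CPM. The 8 TBI rats lay between 55.4 and 123 CPM, and 7 of them were above the highest sham rat. The log2 difference of 0.88 (SE 0.26) fell just short of the threshold in edgeR, with an adjusted p of 0.0504, and passed it in DESeq2 (adjusted p = 0.00926), which called 62 of all miRNAs. It also passed in edgeR in 15 of the 29 fits that leave out 1 rat. The same held with upper-quartile factors, with scaling to miR-28-3p and with the replicate block. No member was called at UEF in the main edgeR fit, where 3.86% of all miRNAs were. Of the members, 1 had an unadjusted p below 0.05, against 126 of all 751. miR-92a-3p was at 0.49 (SE 0.25) and miR-19b-3p, the member with the largest estimate at UCLA, was at −0.57 (SE 0.37). Without UEF sham 3 it was at −0.13, and with libraries scaled to miR-28-3p at 0.00.

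At Monash no member was called in edgeR or DESeq2, and 0.00% of all miRNAs were called in edgeR. No member had an unadjusted p below 0.05 there, against 74 of all. Estimates ran from −0.36 to 0.36, with 2 of 10 above 0 and a median of −0.11. In that group of 3 sham rats, Monash sham 2 had miR-92a-3p at 21380 CPM against 17460 and 13190 in the other sham rats, and miR-20a-5p at 1035 CPM against 506 and 469. Without it 9 of 10 members were above 0 and the median was 0.27, with none called. The median was −0.34 without Monash sham 1 and −0.30 without Monash sham 3, each with 2 of 10 above 0.

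Whether the TBI difference itself depended on the site was tested in a single fit with a mean for each site and condition. No member was called in edgeR or DESeq2, against 2.80% of all miRNAs in edgeR (21). Of the members, 4 had an unadjusted p below 0.05: miR-19b-3p, miR-19a-3p, miR-18a-3p and miR-20a-5p, against 146 of all 751. Without Monash sham 2 or without UCLA sham 2, 1 member had. The lowest adjusted p in edgeR was 0.143, for miR-19b-3p. The larger estimates at UCLA are thus not shown to differ from those at the other sites.

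**Figure D2:**
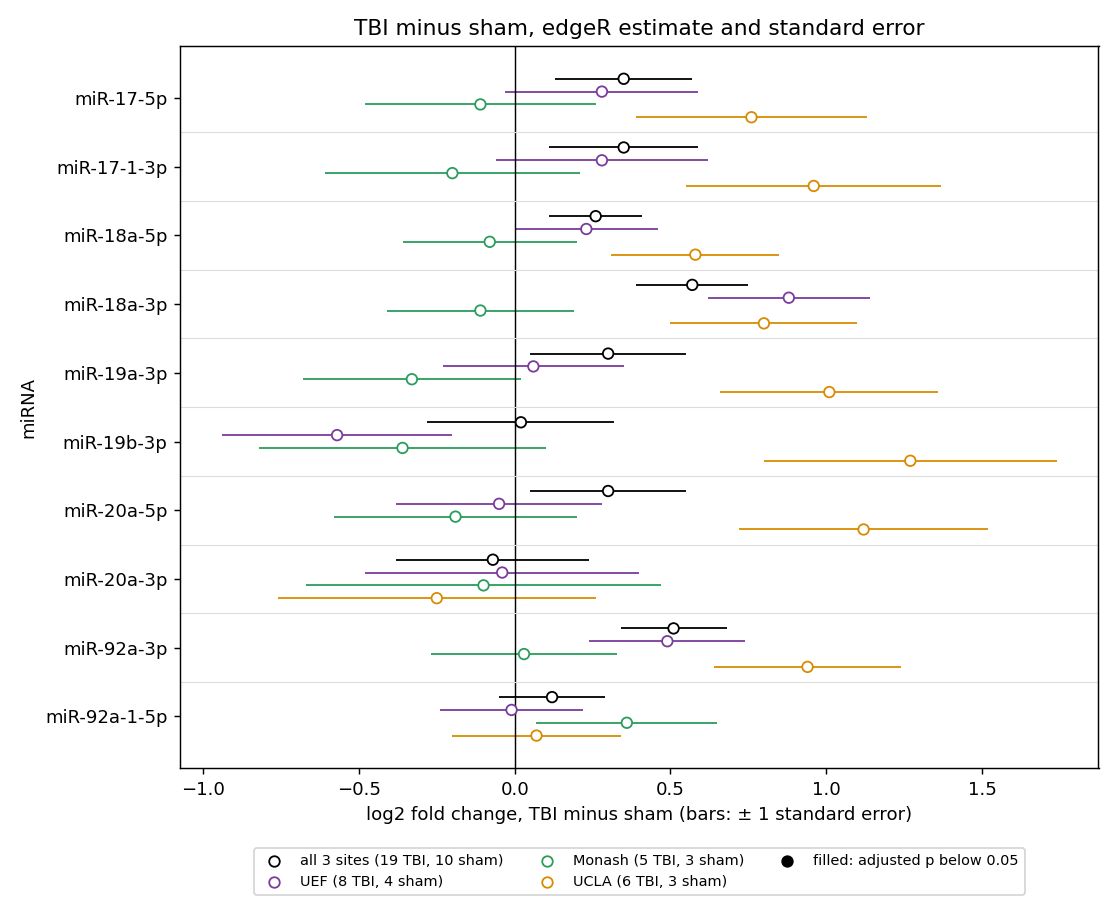
Log2 difference TBI minus sham from edgeR for each of the 10 members, for all sites (black) and within UEF, Monash and UCLA; points are estimates, bars are 1 standard error, and a filled point would mark an adjusted p below 0.05. No point is filled, and UCLA estimates lie between 0.58 and 1.27 for 8 members.

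Red cells hold miRNAs that reach plasma when the cells break. The red cell list (miR-451-5p, miR-144-3p, miR-144-5p, miR-486 and miR-16-5p) was found in full, and its miRNAs summed to a median of 23.1% of the counts in sham rats (6.82% to 37.1%) and 32.7% in TBI rats (22.0% to 43.1%), with miR-16-5p the most abundant. At UCLA these sums were 27.7%, 34.4% and 37.1% in the sham rats and between 35.3% and 43.1% in the TBI rats. None of the 5 was called between TBI and sham in edgeR, and their median log2 difference was 0.62. Within sites their medians were 0.92 at UEF, where miR-486 was called at 1.34, −0.50 at Monash and 1.05 at UCLA, beside 0.14, −0.11 and 0.87 for the cluster. The order of the cluster medians at UEF and Monash turned without Monash sham 2 (0.22 and 0.27). The UEF cluster median was 0.30 without UEF sham 1 and 0.08 without UEF sham 4. With libraries scaled to miR-28-3p the cluster medians at UEF and UCLA were 0.44 and 0.52, beside medians of all miRNAs of 0.33 and −0.36.

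The log2 ratio of miR-451-5p to miR-23a-3p counts, which is used as a marker of red cell lysis in plasma, was −2.86 ± 0.62 (mean ± SD, n = 10) in sham rats and −2.15 ± 0.61 (n = 19) in TBI rats. The authors report no hemolysis in the sequenced samples by qPCR of miR-23a and miR-451, and absorbance slightly above their limit in a few. The count ratio was −1.33 in Monash sham 2, the highest of the sham rats, and −3.57 in UEF sham 3, the lowest of the 29. With this ratio as a term of the model, the median of the members in TBI minus sham went from 0.30 to 0.03, and none was called. Because the ratio itself was higher on average in TBI than in sham rats, the term also takes up injury difference. The parts of lysis and injury cannot be told apart by this fit. miR-92a-3p was then at 0.38 and miR-18a-3p at 0.28, while miR-17-5p was at 0.06 and miR-20a-5p at −0.02. At UCLA the median of the members went from 0.87 to 0.32 with all 10 above 0, at UEF from 0.14 to −0.22, and at Monash from −0.11 to 0.00 with 5 of 10 above 0. At UEF miR-18a-3p went from 0.88 to 0.44 (adjusted p = 0.427 in edgeR).

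The other marker lists were measured too. The white cell and platelet list (miR-223-3p, miR-142-3p, miR-142-5p and miR-150-5p) had a median of 0.25 between TBI and sham, with 0 of 4 called in edgeR. At UCLA, where the cluster estimates were largest, its median was 0.78, with 4 of 4 above 0 and 3 with an unadjusted p below 0.05. The liver miRNA miR-122-5p fell by 1.65 on the log2 scale (SE 0.42, adjusted p = 0.0379 in edgeR). By site it was at −2.95 at UEF, where it was called, −0.89 at Monash and −0.11 at UCLA. It made up between 28.1% and 55.1% of counts in the 4 UEF sham rats. The brain list (miR-124-3p, miR-9a-5p and miR-9a-3p) had a median of 0.54, with 0 of 3 called in edgeR (at UEF 0.87, with miR-9a-5p called at 0.97), and summed to at most 0.0513% of the counts of a rat. The part of these sources, or of red cells, in the cluster's levels was not tested.

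The comparison of sites asks how far plasma differed between rats kept, operated on and sampled at 3 laboratories. The authors report different rat sources and feed at the sites. Analgesia was buprenorphine at UEF and Monash and flunixin at UCLA, where chow with an antibiotic was also given after injury. Over the 3 sites together, edgeR called 2 of the 10 members, against 14.8% of all miRNAs (111 of 751). They were miR-18a-5p (adjusted p = 0.0199 in edgeR) and miR-17-5p (adjusted p = 0.0260 in edgeR), the kept arms of the first 2 hairpins. DESeq2 called 3, with miR-20a-3p (adjusted p = 0.0238). Over the 11 alternative settings, DESeq2 among them, 40 to 155 of all miRNAs were called. In edgeR neither miR-18a-5p nor miR-17-5p was called with the replicate block (0.0619 and 0.118), in sham rats alone (0.491 and 0.382) or in TBI rats alone (0.0525 and 0.0574). With libraries scaled to miR-28-3p miR-18a-5p was not (adjusted p = 0.206 in edgeR).

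miR-17-5p, which represses cell cycle inhibitors, was at 74.0, 134 and 276 CPM (lowest, median, highest) in the 12 UEF rats. It was at 123, 181 and 313 CPM in the 8 Monash rats. In the 9 UCLA rats it was at 145, 213 and 381 CPM. The ranges overlapped, and 7 of 12 UEF rats were below the lowest UCLA rat.

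miR-18a-5p, whose seed differs from that of miR-17-5p by A4G, was at 108, 141 and 213 CPM in the UEF rats. It was at 145, 178 and 268 CPM at Monash. At UCLA it was at 167, 223 and 396 CPM. Of the 12 UEF rats, 10 were below the lowest UCLA rat and none above the UCLA median.

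Between UEF and UCLA 2 members were called, both lower at UEF, against 9.32% of all miRNAs (70, of which 39 were higher and 31 lower at UEF). miR-17-5p was lower by a log2 difference of −0.88 (SE 0.24, 0.544-fold, adjusted p = 0.0152 in edgeR) and miR-18a-5p by −0.67 (SE 0.17, 0.630-fold, adjusted p = 0.0101 in edgeR). Both were called with each of the 29 rats left out in turn. In TBI rats alone both were called too. With libraries scaled to miR-28-3p miR-18a-5p was not called (−0.57, adjusted p = 0.0979 in edgeR), and with the replicate block miR-17-5p was not (−0.75, adjusted p = 0.0748 in edgeR). In sham rats alone, 4 against 3, neither was, with −0.55 (adjusted p = 0.561 in edgeR) and −0.44 (adjusted p = 0.608 in edgeR).

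The other 8 members did not pass in the main edgeR fit. miR-20a-5p, with the seed of miR-17-5p and 2 other bases different, was at −0.52 (SE 0.28, adjusted p = 0.321 in edgeR) between UEF and UCLA. It was called when the filter was raised to 100 counts in each library (−0.47, adjusted p = 0.0221 in edgeR). miR-19a-3p was at −0.59, miR-92a-3p at −0.44, miR-18a-3p at −0.42, miR-19b-3p at −0.29 and miR-17-1-3p at −0.24. The exceptions in direction were miR-20a-3p at 0.33 and miR-92a-1-5p at 0.24, both less used arms. The median over the 10 was −0.43, against 0.07 over all miRNAs. In sham rats alone it was 0.17, with 6 of 10 above 0, and in TBI rats alone −0.64.

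Between UEF and Monash 1 member was called, against 9.99% of all miRNAs (75). It was miR-20a-3p, the less used arm of the miR-20a hairpin, with 10.6, 19.8 and 54.0 CPM (lowest, median, highest) at UEF. At Monash it had 2.62, 8.44 and 20.3 CPM and at UCLA 7.35, 15.2 and 40.6 CPM. All 12 UEF rats were above the Monash median and 6 were above the highest Monash rat. The log2 difference of UEF minus Monash was 1.28 (SE 0.39, 2.42-fold, adjusted p = 0.0389 in edgeR). It was not called in TBI rats alone (1.32, adjusted p = 0.282 in edgeR), in sham rats alone (1.24, adjusted p = 0.212 in edgeR) or with libraries scaled to miR-28-3p (1.51, adjusted p = 0.134 in edgeR). Nor was it with the replicate block (1.14, adjusted p = 0.119 in edgeR) or with upper-quartile factors (1.32, adjusted p = 0.0506 in edgeR). The call was also lost when any of 10 rats was left out, with log2 1.08 to 1.31 and an adjusted p in edgeR of 0.0568 to 0.0965. These were UEF sham 1, UEF TBIN 1, UEF TBIE 3, UEF TBIE 4, Monash sham 1, Monash sham 2, the 3 Monash TBIN rats and UCLA TBIN 1.

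miR-20a-5p, the kept arm of that hairpin, was not called, with −0.43 (SE 0.29, adjusted p = 0.356 in edgeR) in UEF minus Monash. The estimates of miR-17-5p and miR-19a-3p were both −0.59 and that of miR-18a-5p −0.37, each with an unadjusted p below 0.05. miR-92a-1-5p, the other less used arm with a high level at UEF, was at 0.56 (SE 0.20, adjusted p = 0.0665 in edgeR). Leaving out Monash TBIE 2 brought miR-92a-1-5p to 0.77 (adjusted p = 0.00873 in edgeR), and leaving out UEF TBIN 2 brought miR-17-5p to −0.75 (adjusted p = 0.0297 in edgeR). Over the 10 members 4 estimates were above 0 and the median was −0.06, against 0.06 over all miRNAs. In sham rats alone it was −0.39, with 3 of 10 above 0, and in TBI rats alone 0.05, with 6 of 10 above 0.

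Between Monash and UCLA no member was called in the main edgeR fit or in DESeq2, against 5.46% of all miRNAs in edgeR (41). Of the members, 1 had an unadjusted p below 0.05, miR-20a-3p at −0.94 (SE 0.41, adjusted p = 0.197 in edgeR), against 148 of all. miR-92a-3p was at −0.35, miR-18a-5p at −0.30 and miR-17-5p at −0.29. With at least 100 counts in every rat, miR-92a-3p was called (−0.50, adjusted p = 0.0423 in edgeR). The median over the 10 was −0.31, against 0.00 over all miRNAs. In sham rats alone it was 0.21, with 8 of 10 above 0, and in TBI rats alone −0.56, with 4 unadjusted p below 0.05 in edgeR.

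Markers of other sources differed between the sites too. Liver miR-122-5p was higher at UEF than at UCLA by 3.49 (adjusted p = 2.34e-05 in edgeR) and higher at Monash than at UCLA by 2.05 (adjusted p = 0.0130 in edgeR). Of the 4 white cell and platelet miRNAs, 2 were called lower at UEF than at Monash, miR-142-5p at −0.86 and miR-223-3p at −0.82, and the list median was −0.77. No red cell miRNA was called between sites. With the miR-451-5p to miR-23a-3p ratio in the model, edgeR called the same members as without it, miR-17-5p and miR-18a-5p between UEF and UCLA and miR-20a-3p between UEF and Monash. The ratio is a marker only, and the part of red cells, liver, white cells and platelets in the site differences was not tested.

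**Figure D3:**
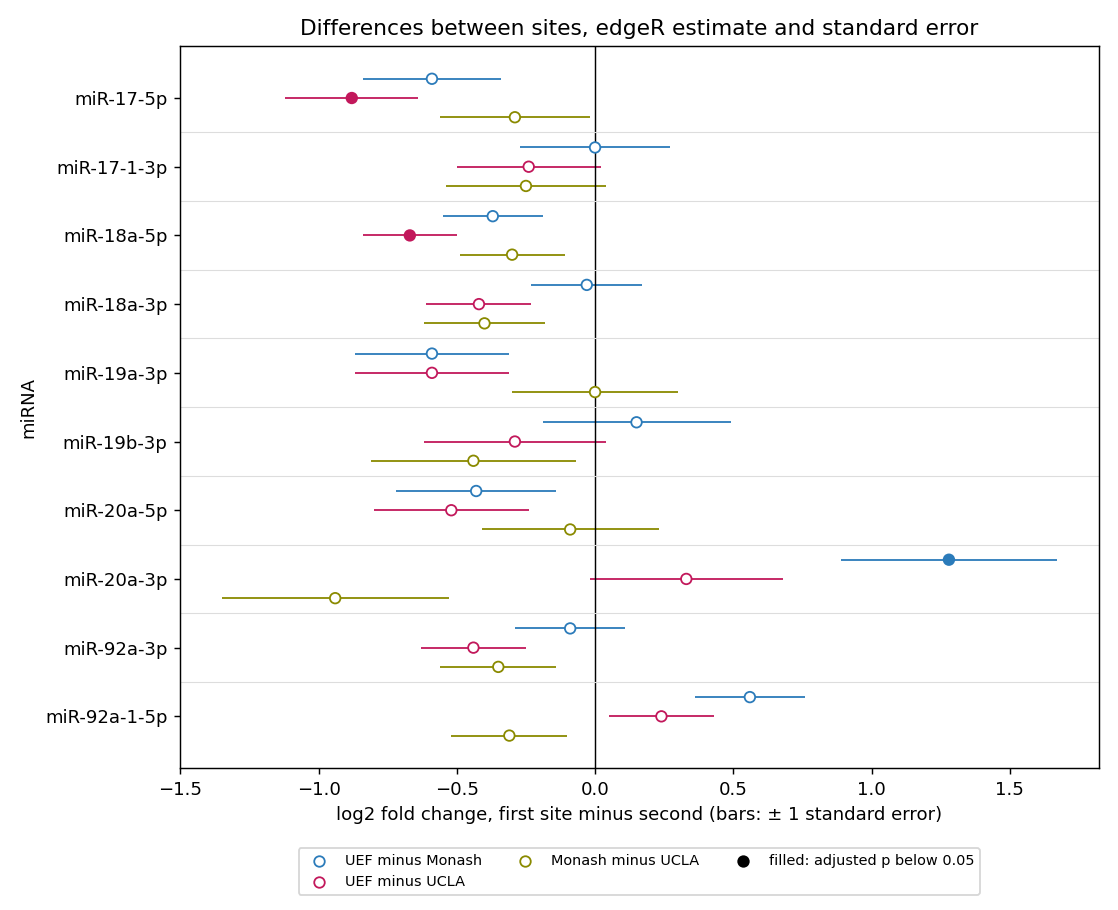
Log2 difference between each pair of sites from edgeR for each of the 10 members; points are estimates, bars are 1 standard error, and filled points have an adjusted p below 0.05. The filled points are miR-17-5p and miR-18a-5p in UEF minus UCLA (−0.88 and −0.67) and miR-20a-3p in UEF minus Monash (1.28).

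The ratio of 2 counts in 1 library does not depend on how libraries are scaled, and 3 such ratios were compared in 5 ways each. The log2 ratio of miR-20a-5p to miR-20a-3p, the arms of 1 hairpin, was 4.44 ± 1.21 (mean ± SD, n = 12) at UEF, 6.13 ± 1.39 (n = 8) at Monash and 5.27 ± 1.34 (n = 9) at UCLA. It ran from 2.19 in UEF TBIE 4 to 8.38 in Monash TBIN 1. UEF minus Monash was −1.69, with p = 0.00992 in a two-sided exact permutation test and 0.0784 after Benjamini-Hochberg adjustment over the 15 tests.

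Counts of miR-92a-3p, miR-17-5p and miR-19b-3p join the chromosome X copy, so ratios with them are not of this cluster alone. For miR-92a-3p to miR-17-5p, UEF rats had a log2 ratio of 7.03 ± 0.47, Monash rats 6.49 ± 0.34 and UCLA rats 6.56 ± 0.50. UEF minus Monash was 0.54 (exact permutation p = 0.0150, adjusted 0.0784) and UEF minus UCLA 0.47 (exact permutation p = 0.0414, adjusted 0.155). The log2 ratio of miR-19b-3p to miR-19a-3p was 3.89 ± 0.53 at UEF and 3.33 ± 0.34 at Monash, a difference of 0.56 (exact permutation p = 0.0157, adjusted 0.0784). None of the 15 tests passed an adjusted p of 0.05. Without Monash TBIE 1 the ratio of the miR-20a arms did, at −1.98 in UEF minus Monash (exact permutation, adjusted p = 0.0458).

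Between TBI and sham, with rats exchanged only within a site, the ratio of the miR-20a arms differed by 0.42, that of miR-92a-3p to miR-17-5p by 0.18 and that of miR-19b-3p to miR-19a-3p by −0.21. Between TBIE and TBIN these differences were −0.28, −0.02 and 0.02. The lowest exact permutation p of these 6 was 0.205. The makeup of the cluster's counts thus showed no difference by injury or epilepsy past the threshold in these tests.

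**Figure D4:**
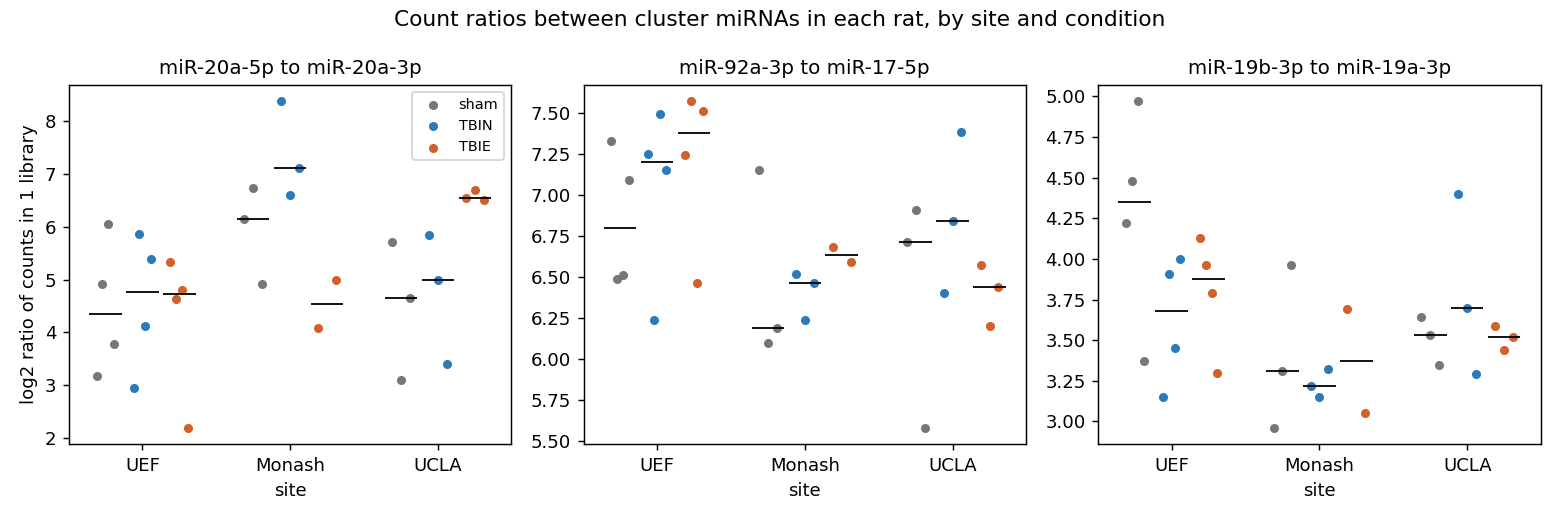
Log2 ratio of the counts of 2 cluster miRNAs in the same library for each of the 29 rats, by site and condition (grey sham, blue TBIN, orange TBIE); each point is 1 rat and each short line is a group median. The ratio of the miR-20a arms lies between 2.19 and 6.05 at UEF and between 4.09 and 8.38 at Monash.

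Across rats, most members went up and down together. Over the 45 pairs of members the median Spearman rho of log2 CPM over 29 rats was 0.53, from −0.59 to 0.87, against 0.00 over all pairs of the 751 miRNAs. After the mean of each site and condition was taken out, the median was 0.43. These rats share site, injury and depth, and the values are a description.

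The closest pair was miR-17-5p and miR-20a-5p (rho 0.87), which share a seed. miR-19a-3p and miR-20a-5p followed (0.85), then miR-18a-3p and miR-92a-3p (0.84). The arms of a hairpin did not always go together: miR-17-5p and miR-17-1-3p were at 0.73 and miR-18a-5p and miR-18a-3p at 0.67, but miR-20a-5p and miR-20a-3p at −0.59 and miR-92a-3p and miR-92a-1-5p at −0.11. miR-20a-3p and miR-92a-1-5p were like each other (0.76) and unlike the rest.

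The nearest neighbours among all miRNAs differed between members. miR-18a-3p was closest of all miRNAs to miR-486 (rho 0.92), a red cell miRNA, and miR-92a-3p was close to it too (0.80). miR-17-5p and miR-20a-5p were closer to miR-16-5p (0.84 each), of the same red cell list, than to miR-486 (0.49 and 0.34). miR-451-5p, also of that list, was at 0.63 with miR-17-5p and 0.68 with miR-20a-5p. It was at 0.63 with miR-92a-3p and 0.80 with miR-18a-3p. The white cell miRNA miR-142-3p was at 0.92 with miR-20a-5p and at 0.82 with miR-19a-3p. Others of its list were lower with these members, miR-223-3p at 0.68 and 0.61 and miR-150-5p at 0.04 and 0.10. The closest to miR-17-1-3p was miR-15b-5p (0.93), and to miR-19b-3p it was miR-30e-3p (0.92). miR-20a-3p was closest to miR-500-5p (0.83).

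Outside the cluster and its copies, the 5 miRNAs with the highest mean rho over the 10 members were miR-425-5p (0.53), miR-16-3p, miR-16-5p, miR-191a-5p and miR-15b-3p (0.52 each). For each of them rho was negative with at least 1 member, down to −0.51. The level of miR-122-5p, the liver miRNA, had rho from −0.64 with miR-18a-5p to 0.01 with miR-19b-3p.

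**Figure D5:**
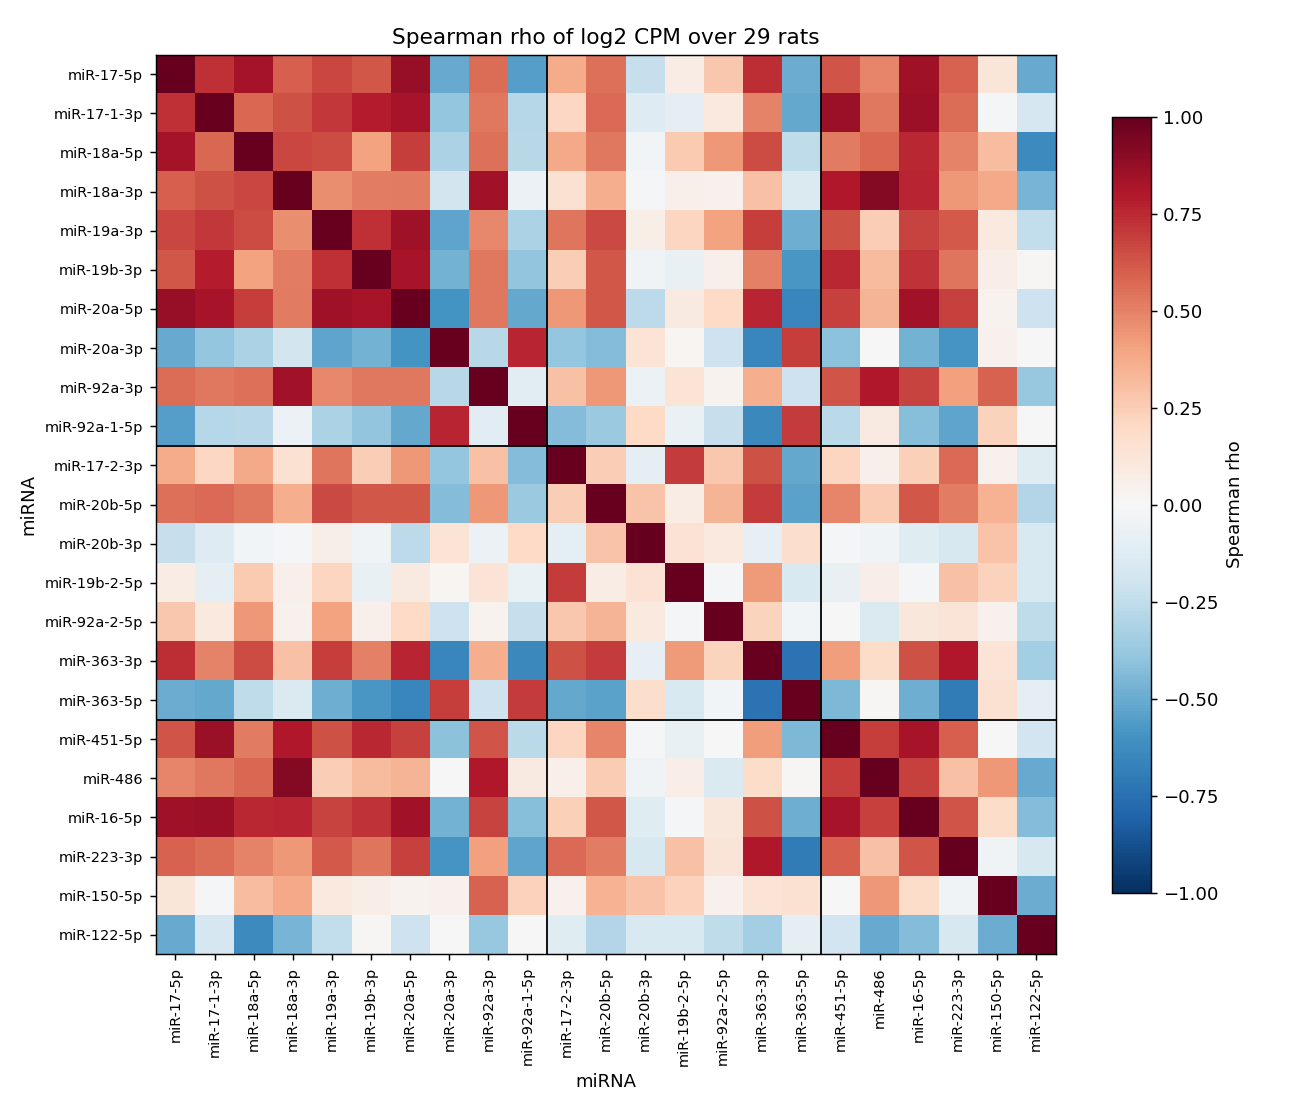
Spearman rho of log2 CPM over the 29 rats between the 10 members (first block), 7 miRNAs found only at the chromosome X copy (second block) and 6 miRNAs of red cells, white cells and liver (last block); red is positive and blue negative. The members form a red block except for miR-20a-3p and miR-92a-1-5p, which are at 0.76 with each other.

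Related miRNAs, most of them from the copies of the cluster on chromosomes X and 12, were compared as a list that did not hold miR-17-2-3p of the X copy. Of 18 names, 14 were found. None was called between TBI and sham in edgeR, where 13 of 14 were above 0 with a median of 0.21. The highest were miR-106b-3p at 0.55, miR-25-5p at 0.54 (adjusted p = 0.121 in edgeR) and miR-25-3p at 0.52, all of the copy on chromosome 12. At UCLA miR-93-5p was at 1.04 and miR-25-3p at 1.00, and 12 of 14 were above 0 with a median of 0.51 and none called in edgeR. At UEF 9 of 14 were above 0 with a median of 0.19, and at Monash 6 of 14 with −0.11.

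The site differences of the copies included miR-363-3p, which has the seed of miR-92a-3p and lies in the chromosome X copy. UEF rats had 40.2, 53.0 and 78.5 CPM of it (lowest, median, highest), Monash rats 63.3, 115 and 178 CPM and UCLA rats 58.3, 86.3 and 149 CPM. It was lower at UEF than at Monash by a log2 difference of −0.99 (SE 0.21, adjusted p = 0.00578 in edgeR) and than at UCLA by −0.66 (SE 0.20, adjusted p = 0.0295 in edgeR). miR-363-5p, the other arm of that hairpin, was higher at UEF than at Monash by 0.74 (SE 0.24, adjusted p = 0.0452 in edgeR). The arms of this hairpin were thus called in opposite directions. Over all rats the median count was 253 for miR-363-5p and 193 for miR-363-3p. Also called between UEF and Monash was miR-32-5p at −0.99 (SE 0.26, adjusted p = 0.0165 in edgeR). Of the 14, 3 were called between UEF and Monash, against 9.99% of all miRNAs, and 1 between UEF and UCLA, against 9.32%.

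The 7 miRNAs found only at the chromosome X copy had a median of 0.07 between TBI and sham, and the 7 members found only in the chromosome 15 cluster one of 0.30, with none called in either by edgeR. At UCLA these medians were 0.37 and 0.80, at UEF −0.04 and 0.06, and at Monash −0.26 and −0.11. The difference between these groups of miRNAs was not tested.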

How the data were processed

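Small RNA of plasma was counted in 29 rats, 48 h after TBI or sham surgery at 3 sites. The deposited counts are whole numbers for each of 754 miRNAs: the authors trimmed the reads with cutadapt, aligned them with bowtie to Rnor_6.0 and named them by miRBase 21, without normalization. The libraries carried unique molecular identifiers, and whether reads of the same molecule were merged is not stated. In 7 cases a name stands for more than 1 mature miRNA. The precision rests on a median of 2713557 counts per rat (1162307 to 5223469), so a miRNA at 20 CPM has few counts in a shallow library.

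Differences were tested in R 4.3.3 with edgeR 4.0.16 (limma 3.58.1): filterByExpr with a minimum count of 10, TMM factors and quasi-likelihood F tests, with p adjusted over 751 miRNAs by the Benjamini-Hochberg method and called below 0.05. Site and condition were terms of the main model, and TBI was the mean of TBIN and TBIE. A model with a mean for each site and condition gave TBI against sham at each site and the TBI effect by site. Log2 CPM had a prior count of 2. Count ratios were compared by two-sided exact permutation tests, within sites for conditions, adjusted over 15 tests. Likeness was the Spearman correlation of log2 CPM. Alternatives were DESeq2 1.42.0, RLE and upper-quartile factors, scaling to miR-28-3p, no filter, at least 100 counts in every rat, the miR-451-5p to miR-23a-3p ratio as a term, a replicate block, no site or no condition term, only sham or only TBI rats, a site left out, permutation without regard to site, and each rat left out. The fits were tested on simulated data. Tables and figures were made with scipy 1.17.1, matplotlib 3.10.9, pandas 2.3.3 and numpy 2.4.6 in Python 3.11.15.

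All 10 names chosen for the cluster are reported. Other miRNAs come from lists for related miRNAs, red cells, white cells and platelets, liver and brain, or are the nearest in likeness. The choice left out miR-19a-5p and miR-19b-1-5p, also of the chromosome 15 cluster, with 0 to 74 and 8 to 99 counts in a rat. The members and lists were chosen with earlier results of these data known. The split by chromosome was made from RefSeq sequences after the counts had been seen.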

Additional observations from a re-analysis of the deposited data

Results flagged for a closer look

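A value was flagged where the highest or lowest rat of a group lay further from the rest than expected by chance in 1 of 20 groups. Over 104 groups tested, 10 were flagged, where 1 in 20 would be 5.2. The groups share rats and many members go together, so the flags are not independent, and whether 10 is an excess was not tested.

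UEF TBIN 2 accounted for 3 of them among 4 UEF TBIN rats. It had miR-17-5p at 275.7 CPM (next 133.1), miR-17-1-3p at 125.7 CPM (next 52.47) and miR-20a-5p at 1034 CPM (next 445.0). The same rat had the highest log2 ratio of miR-451-5p to miR-23a-3p of all 29, −0.873.

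UEF TBIE 4 accounted for 3 more. It had the lowest miR-19b-3p of 4 UEF TBIE rats, 324.8 CPM (next 616.7), and the highest miR-92a-1-5p, 60.25 CPM (next 42.50). Its miR-20a-3p, at 54.02 CPM, was the highest of 9 TBIE rats (next 22.03).

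The others were single values. UCLA TBIE 3 had the highest miR-18a-5p of the TBIE rats, 396.4 CPM (next 265.1). Monash sham 2 had the highest miR-19a-3p of the sham rats, 121.4 CPM (next 68.44). Monash TBIE 2 had the highest miR-92a-1-5p at Monash, 67.03 CPM (next 39.95). UCLA TBIN 1 had the highest log2 ratio of miR-19b-3p to miR-19a-3p at UCLA, 4.40 (next 3.70).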

How the results depend on the processing

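Of 2359 refits of 61 single results, 2263 gave the same reading, 26 were weaker, 38 stronger and 32 reversed. Unless a sentence says otherwise, the cause was not tested.

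Between TBI and sham, where no member was called, 1 was under DESeq2 (miR-18a-3p), 1 with at least 100 counts in every rat (miR-92a-3p, which leaves 188 miRNAs and 5 members to test) and 1 with Monash left out (miR-18a-3p at 0.85). With each rat left out the count was 0 to 2. Over the 3 sites together, where 2 were called, 1 was with scaling to miR-28-3p (miR-17-5p). With at least 100 counts, 4 of the 5 members tested were called. Over the settings, the calls among all miRNAs ran from 40 to 155. Under DESeq2 and without a condition term 3 members were called, which adds miR-20a-3p. The count was 0 with only sham rats and 0 with only TBI rats, which are fewer rats, and 2 to 4 with each rat left out.

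Between UEF and Monash, where 1 was called, the count was 0 with upper-quartile factors, 0 with scaling to miR-28-3p, 0 in sham rats alone, 0 in TBI rats alone, and 0 to 2 with each rat left out. With at least 100 counts it was 1, but this was miR-17-5p at −0.43, since miR-20a-3p is not tested there. Between UEF and UCLA, where 2 were called, 1 was with scaling to miR-28-3p (miR-17-5p), 3 with at least 100 counts (miR-20a-5p added) and 0 in sham rats alone. Between Monash and UCLA, where 0 were called, 1 was with at least 100 counts (miR-92a-3p). For TBI at UEF, where 0 were called, 1 (miR-18a-3p) was under DESeq2, with upper-quartile factors and with scaling to miR-28-3p, and 0 to 1 with each rat left out. For TBI at UCLA, where 0 were called, 1 (miR-92a-3p) was under DESeq2.

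Rats with the same replicate number share only a name: over 28 such pairs within sites the correlation of deviations from group means ran from −0.422 to 0.396, with 7 over 0.1. With the replicate block, 0 members were called over the 3 sites and 0 between UEF and Monash, 1 between UEF and UCLA (miR-18a-5p) and 1 for TBI at UEF (miR-18a-3p). It moved the counts of all miRNAs to 5 between TBI and sham, 31 between UEF and Monash, 46 between UEF and UCLA and 7 for TBI at UCLA, and changed no other call of a member.

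Some single log2 differences changed sign. Between TBI and sham with the miR-451-5p to miR-23a-3p ratio in the model, miR-17-1-3p was −0.05, miR-19a-3p −0.01, miR-19b-3p −0.27, miR-20a-5p −0.02 and miR-20a-3p 0.11. With UCLA left out, miR-19a-3p was −0.04, miR-19b-3p −0.41, miR-20a-5p −0.03 and miR-20a-3p 0.02. miR-19b-3p was −0.02 under DESeq2 and −0.02 with RLE factors. With each rat left out it ran from −0.12 to 0.24 (7 reversed), and miR-20a-3p from −0.20 to 0.13 (7 reversed). In sham rats alone, UEF minus UCLA was 0.22 for miR-17-1-3p, 0.12 for miR-19a-3p, 1.01 for miR-19b-3p and 0.31 for miR-20a-5p, and Monash minus UCLA was 0.22 for miR-17-5p, 0.11 for miR-18a-5p and 0.20 for miR-92a-3p.

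For the count ratios, miR-92a-3p to miR-17-5p in TBIE minus TBIN was 0.01 without regard to site and −0.13 to 0.08 with each rat left out. In Monash minus UCLA it ran from −0.19 to 0.04. The ratio of the miR-20a arms ran from −0.59 to 0.07 in TBIE minus TBIN and from −1.98 to −1.37 in UEF minus Monash. The ratio of miR-19b-3p to miR-19a-3p in TBIE minus TBIN ran from −0.05 to 0.12.

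The calls among all miRNAs moved by over 1.5 times in these settings. Between TBI and sham (9) there were 24 under DESeq2, 19 with at least 100 counts, 4 with the ratio in the model, 15 without a site term, and 0, 21 and 14 without UEF, Monash and UCLA. Over the 3 sites (111) there were 66 in sham and 40 in TBI rats alone. Between UEF and Monash (75) there were 46 with upper-quartile factors, 18 with miR-28-3p, 26 with at least 100 counts, 35 in sham and 0 in TBI rats alone. Between UEF and UCLA (70) there were 36 in sham and 40 in TBI rats alone, and between Monash and UCLA (41) 21 and 23. The TBI effect by site (21) had 63 under DESeq2, 11 with miR-28-3p and 11 with at least 100 counts. TBI at UEF (29) had 62, at Monash (0) 13 and at UCLA (11) 40 under DESeq2, and at UCLA 4 with the ratio in the model. With each rat left out, the counts of all miRNAs ran from 1 to 16 between TBI and sham, 95 to 154 over the 3 sites, 39 to 117 between UEF and Monash, 60 to 77 between UEF and UCLA, 25 to 59 between Monash and UCLA, 7 to 33 for the TBI effect by site, 15 to 62 at UEF, 0 to 5 at Monash and 2 to 13 at UCLA. Scaling to miR-28-3p also moved the median of all miRNAs, to 0.14 in TBIE minus TBIN, 0.13 in UEF minus Monash, 0.33 for TBI at UEF and −0.36 for TBI at UCLA.

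Depth limits the lowest members most: miR-20a-3p had 6 to 156 counts in a rat, so its differences carry wide errors. The groups within a site hold 2 to 4 rats of a condition, and a missed threshold there does not show equal levels. Rats of a site share their source, feed, drugs and handling, so a difference between sites cannot be assigned to animals, drugs, surgery or blood drawing. Counts of miR-17-5p, miR-19b-3p and miR-92a-3p join the 2 copies of the cluster.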

Other observations

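The 10 members together made up between 0.563% and 3.42% of the counts of a rat. The median share was 1.28% in UEF sham rats and 2.36% in UEF TBI rats. It was 1.83% and 2.17% at Monash, and 2.21% and 2.74% at UCLA. The 6 UCLA TBI rats lay between 2.66% and 3.42%, above the 3 UCLA sham rats at 1.55% to 2.64%. These shares depend on what else is in the library, such as miR-122-5p and miR-16-5p, and were not tested.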
